A study of Homo sapiens with 6 samples.

Results

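The 48 genes described here encode proteins that load, fire and copy from DNA replication origins in human cells. They were taken by symbol, as the genes of the listed origin and fork proteins with a value of at least 10 normalized reads in at least 2 libraries. All 48 listed genes met that condition, among 21773 tested features of the whole table. Nascent transcription was measured by PRO-seq, a run-on method that sequences the RNA still held by transcribing polymerases. The cells were SBC-3, an established line of small cell lung cancer of human origin, labelled wild type. Cells of the 3 groups were reverse transfected at 10 nM with siSFPQ-2, siSFPQ-3 or siCtrl and harvested 72 h later, and each group has 2 libraries. Both siSFPQ-2 and siSFPQ-3 are siRNAs against SFPQ, the gene of a nucleic acid-binding protein found in nuclear paraspeckles, and siCtrl is the control siRNA. The question was which nascent transcripts change when SFPQ is targeted. A single cell line was used. Nothing in the labels shows whether replicate libraries are separate cultures, and p-values therefore cover only the spread between these libraries, which may be technical.

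Replication starts at origins that are licensed before S phase. The origin recognition complex (ORC) binds DNA and, with CDC6 and CDT1, loads the ring-shaped MCM helicase in an inactive form. In S phase the kinases DDK (CDC7 with DBF4) and CDK drive CDC45 and the GINS complex onto MCM, which turns it into the active helicase of the fork. DNA polymerase alpha with primase then lays down primers, polymerases epsilon and delta extend the leading and lagging strands on the sliding clamp PCNA, and FEN1 and LIG1 join the lagging strand fragments. Many of these genes are transcribed in proliferating cells under the control of E2F factors.

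The libraries held between 12072813 and 18475158 reads. Values are reads per gene as normalized by the authors, and fold changes were computed on log2(normalized reads + 1). Nascent reads on SFPQ itself were 1825 and 1972 in siSFPQ-2, 1922 and 2466 in siSFPQ-3, and 2294 and 2435 in siCtrl libraries, and the gene was not called (log2 fold change -0.22, limma adjusted p = 0.137). An siRNA acts on the finished transcript, so nascent reads do not check its effect. Among neuroendocrine markers of small cell cancer, SYP, DLL3 and NEUROD1 were tested, CHGA was below the filter, and INSM1 and NCAM1 were not analysed here. The markers in the table summed to 451 and 492 normalized reads in siSFPQ-2, 281 and 305 in siSFPQ-3, and 437 and 391 in siCtrl libraries, mainly SYP. DLL3 was called lower with both siRNAs (-0.83, limma adjusted p = 0.00730). SYP (0.14, adjusted p = 0.463) and NEUROD1 (-0.94, adjusted p = 0.0506) were not called. By single siRNA, SYP was called higher with siSFPQ-2 (0.56, adjusted p = 0.0261) and not called with siSFPQ-3 (-0.28, adjusted p = 0.216). The summed level of 3 tested epithelial markers ranged from 2207 to 2717 normalized reads in siSFPQ libraries and was 921 and 1016 in siCtrl libraries, mainly KRT8. KRT8 (1.40) and KRT18 (3.24) were called higher, and EPCAM was not called (0.10). That of 2 fibroblast markers ranged from 411 to 582 in siSFPQ libraries and was 255 and 224 in siCtrl libraries, mainly COL1A1. The 2 tested immune markers summed to between 463 and 752 in siSFPQ libraries and to 747 and 750.0 in siCtrl libraries, mainly CD68, and no endothelial marker was tested of 4 listed. The part of these marker levels in the results was not tested.

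Transcription of most replication genes was lower with the siRNAs against SFPQ. With both siRNAs against siCtrl, 41 of the 48 genes fell and 2 rose (limma, Benjamini-Hochberg adjusted p under 0.05 over all features), while 23.2% of all features tested were called lower and 24.8% higher. The 48 genes were chosen with earlier results of these data known, so the contrast with all features is a description. The median log2 fold change was -0.69 over the 48 genes and -0.02 over all features tested. The genes that rose were ORC2 and ORC4, and ORC5, MCM8, PRIM2, RPA1 and RFC1 were not called. In libraries made from whole cultures, fewer cells that transcribe a gene and less transcription per cell cannot be told apart.

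**Figure D1:**
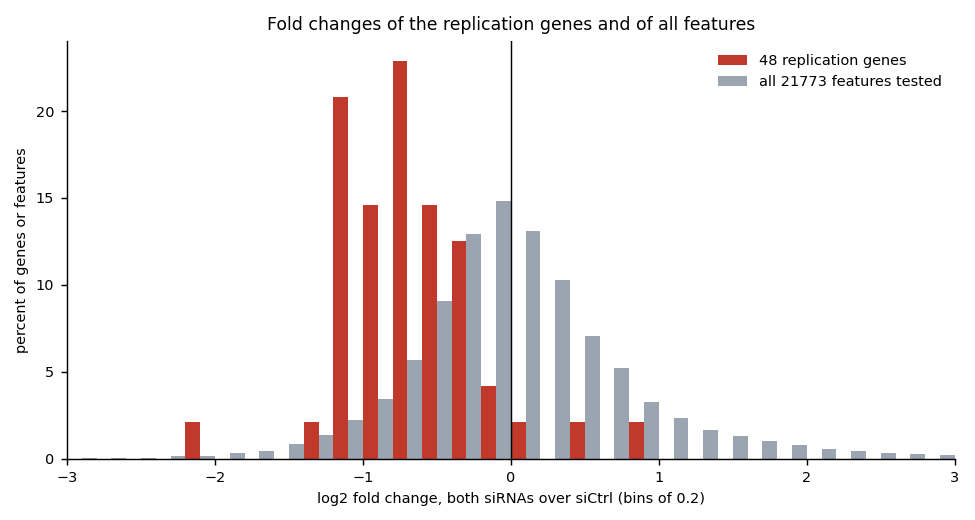
Share of genes (vertical axis, percent) by log2 fold change of both siRNAs over siCtrl (horizontal axis, bins of 0.2), for the 48 replication genes in red and for all 21773 features tested in grey. The replication genes centre on -0.69 and all features on -0.02, and 2 of the called replication genes lie above 0.

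The fall was seen with each siRNA. With siSFPQ-2, 43 genes were called lower and 2 higher, against 17.9% and 21.2% of all features, and the median log2 fold change was -0.93. With siSFPQ-3, 31 were called lower and 2 higher, against 20.4% and 23.0% of all features, and the median was -0.50. The 2 comparisons share the siCtrl libraries. Without siCtrl replicate 1 the siSFPQ-3 count of lower genes was 15, against 9.59% of all features, and without siCtrl replicate 2 it was 16, against 9.79%. In the authors' deposited table, which compares siSFPQ with siCtrl, 36 of the genes had an adjusted p-value under 0.05 with a negative log2 fold change and 2 with a positive one, against 16.9% and 19.9% of its features with an adjusted p-value. Of the genes called lower here, 5 were not called there.

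**Figure D2:**
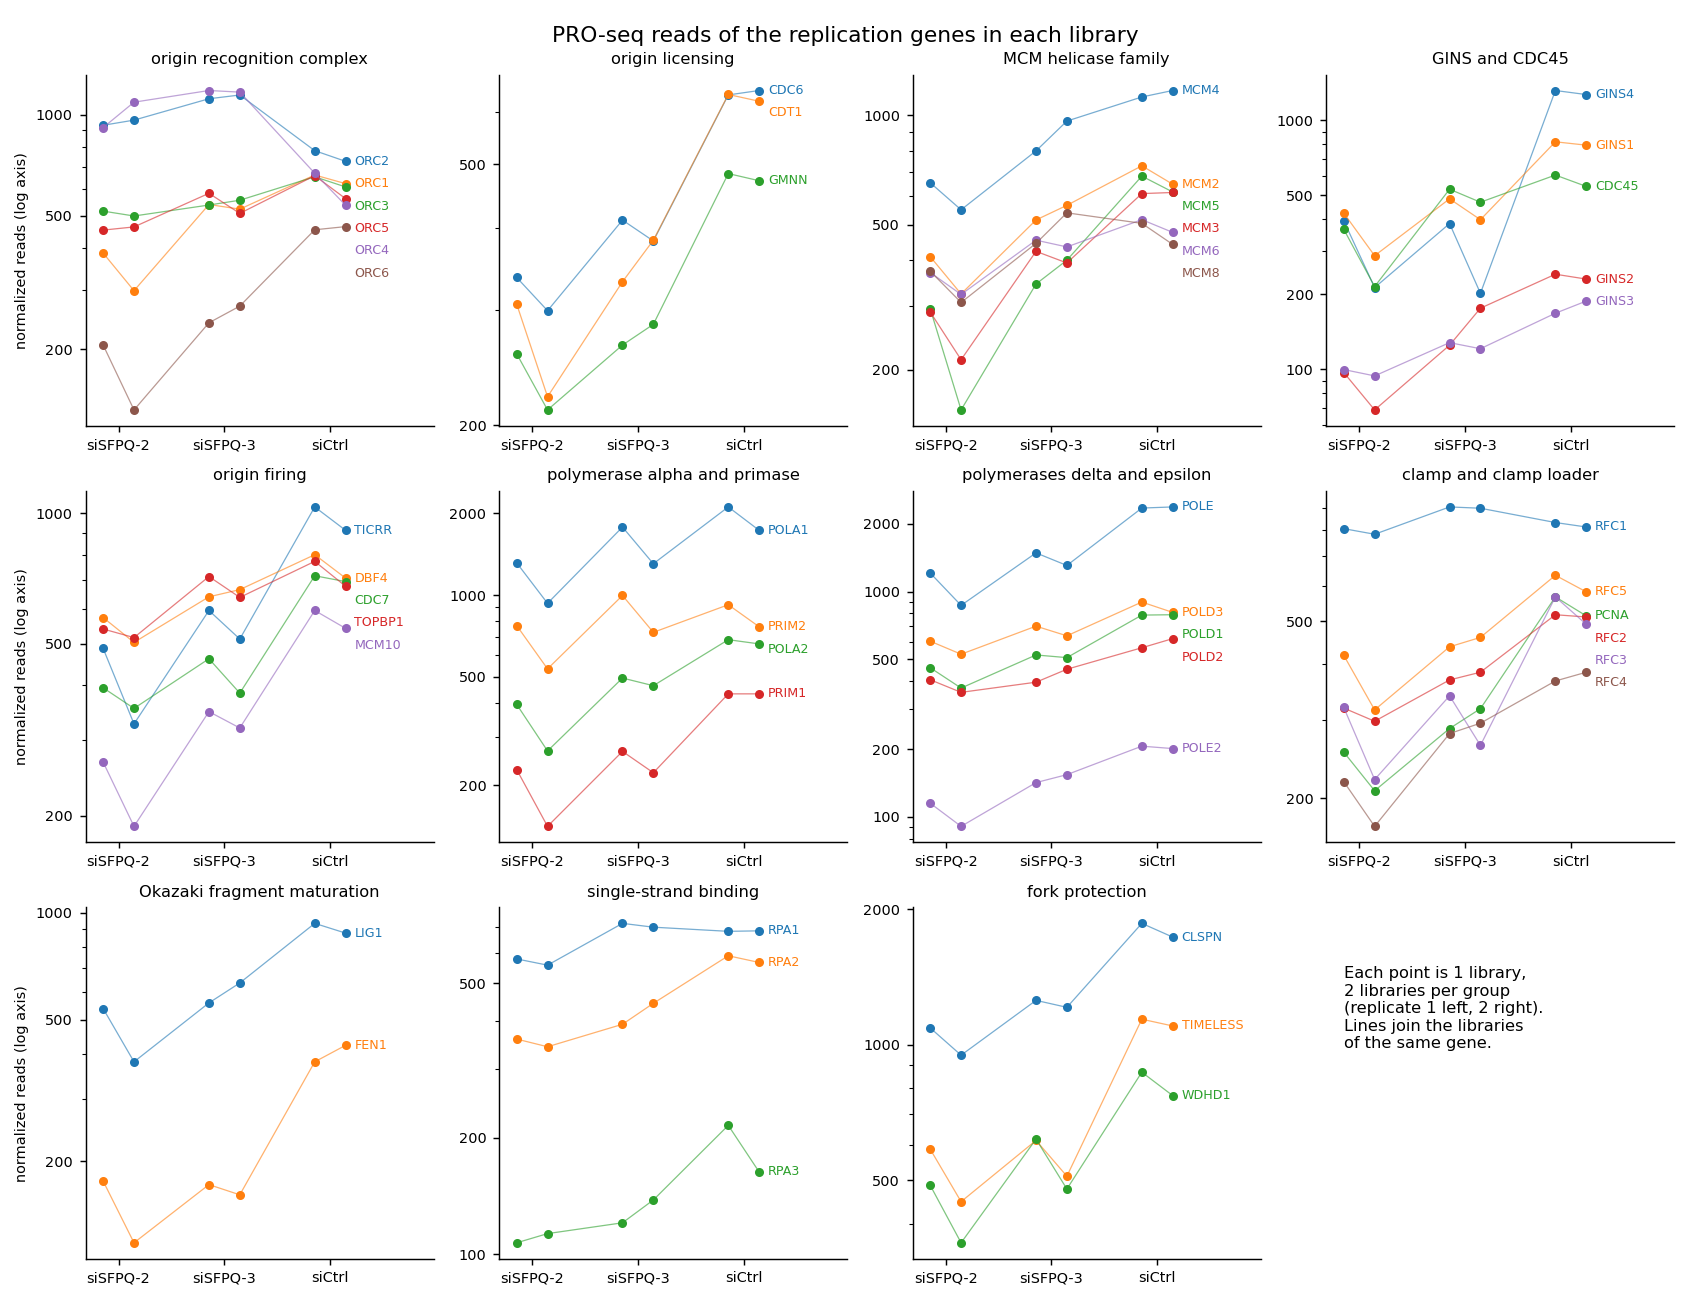
Normalized reads (log axis) of each of the 48 genes in each of the 6 libraries, 1 panel per role, with the libraries of siSFPQ-2, siSFPQ-3 and siCtrl from left to right and a line joining the points of a gene. Most lines stand lowest at siSFPQ-2 and highest at siCtrl, while ORC2 and ORC4 stand lowest at siCtrl and highest at siSFPQ-3.

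The promoters of these genes are shown because the genes moved together. RefSeq promoter windows (GRCh38.p14, 250 bases before to 50 bases after the annotated start) were given for 42 of the 48 genes, and GINS4, MCM4, MCM5, POLD3, RPA2 and RPA3 had no entry. Searched on both strands, the E2F letters were TTTCCCGC, TTTCGCGC, TTTGGCGC and TTTGCCGC, bound by the E2F factors of S phase genes. They occurred in 19 of the 42 windows (45.2%), in 5.26% of the 11931 windows of tested genes and in 3.33% of all 27305 windows. Among genes called lower, 18 of 35 windows held them, and among the genes called higher or not called 1 of 7 did, that of MCM8. The match nearest to the start is printed below with 10 bases on either side, for each of the 19 genes. Each is turned to the strand on which the E2F letters read as spelled, and the capitals mark them. The genes differ in role, from CDC6 and CDT1, which load MCM, through the helicase genes MCM2, MCM3 and MCM6 and the GINS subunits, to the polymerase, clamp and ligase genes.
CDC6: gccattcggaTTTGGCGCgagcgcggct
CDT1: tcccgccaaaTTTCCCGCgggcgccctg
CLSPN: ctgttcttgcTTTCCCGCccagccagag
GINS1: cgctccgcgcTTTGGCGCcgaacaaagc
GINS2: cggccgccgtTTTCCCGCcacggcgaga
GINS3: ttgaaactcgTTTCCCGCgcccggggac
LIG1: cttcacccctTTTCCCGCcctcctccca
MCM2: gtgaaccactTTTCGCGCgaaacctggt
MCM3: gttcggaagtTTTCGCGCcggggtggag
MCM6: gagctggagaTTTCGCGCcaaacctgac
MCM8: taaattctttTTTGGCGCttcagtgatc
ORC3: gcactcgggaTTTCCCGCgcgccctcgc
PCNA: acgcacgcctTTTCCCGCccctgacgct
POLA1: cggacgcgcgTTTGGCGCcctgtgatga
POLA2: tggctcccggTTTCGCGCatgcgtgcac
POLE: aggggagaaaTTTGGCGCgctcccaccc
POLE2: atatttgcgaTTTGGCGCcaccgccgca
RFC3: agagacaagtTTTCCCGCgagctccaaa
TOPBP1: gggaaccgacTTTCGCGCcaaccgcgcg
These stretches lie at the following places, on the strand given: CDC6 chr17:40287876-40287903 (plus), CDT1 chr16:88803744-88803771 (minus), CLSPN chr1:35769966-35769993 (plus), GINS1 chr20:25407668-25407695 (minus), GINS2 chr16:85688968-85688995 (plus), GINS3 chr16:58392456-58392483 (minus), LIG1 chr19:48170441-48170468 (minus), MCM2 chr3:127598403-127598430 (plus), MCM3 chr6:52284729-52284756 (minus), MCM6 chr2:135876512-135876539 (plus), MCM8 chr20:5950668-5950695 (minus), ORC3 chr6:87590113-87590140 (minus), PCNA chr20:5126664-5126691 (plus), POLA1 chrX:24693771-24693798 (minus), POLA2 chr11:65261899-65261926 (plus), POLE chr12:132687343-132687370 (plus), POLE2 chr14:49688202-49688229 (plus), RFC3 chr13:33818084-33818111 (minus), TOPBP1 chr3:133661931-133661958 (plus). In 17 of the 19 genes the match began within 100 bases of the start. MCM6 had 4 matches in its window, MCM2 and MCM3 had 2 each, and the other genes had 1. Matches on opposite strands that share bases were counted separately, as in the printed MCM2 and MCM6 stretches. The counts of matches are therefore larger than the number of separate places. Of the 24 matches, 3 overlapped a GC box match and none overlapped the CCAAT or CHR letters.

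Other letters were searched in the same windows. The CCAAT box (CCAAT), bound by the factor NF-Y, occurred in 23 of the 42 windows (54.8%), in 36.4% of windows of tested genes and in 35.7% of all windows. The GC box (GGGCGG), bound by SP factors, occurred in 31 (73.8%), in 68.1% of windows of tested genes and in 44.6% of all windows. The CHR letters (TTTGAA or TTCGAA), found in promoters of genes of late cell cycle stages, occurred in 2 (4.76%), in 11.3% of windows of tested genes and in 16.6% of all windows. These shares are descriptions, a match is no shown binding site, and an absent match says only that these letters are not in the window.

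**Figure D3:**
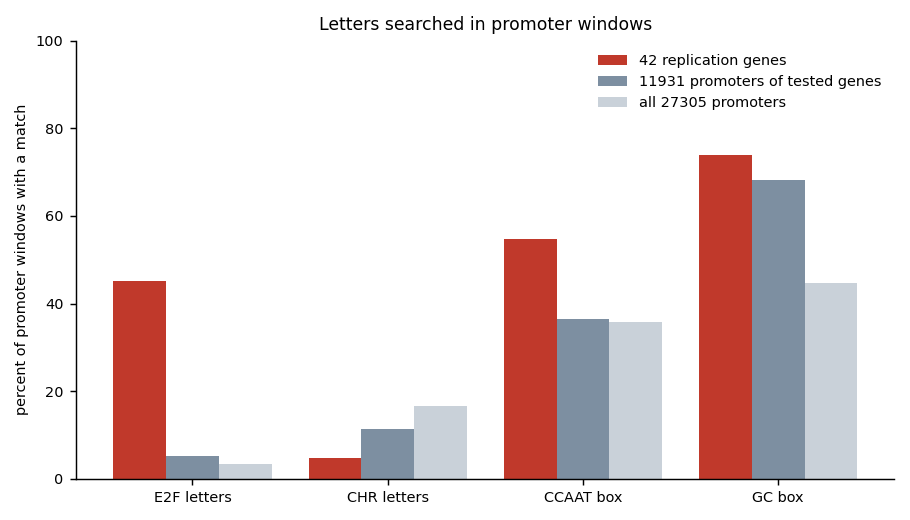
Percent of promoter windows of 300 bases (vertical axis) with at least 1 match to the E2F, CHR, CCAAT and GC box letters, for 42 replication genes (red), 11931 windows of tested genes (dark grey) and all 27305 windows (light grey). The widest gap is at the E2F letters, with 45.2% against 5.26% and 3.33%.

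Whole windows are printed for the 5 genes with the largest falls among those with a promoter entry and for both genes that rose, with E2F, CHR and CCAAT letters in capitals on either strand. FEN1, ORC6, GINS2, TIMELESS and MCM10 fell, and ORC4 and ORC2 rose.
FEN1: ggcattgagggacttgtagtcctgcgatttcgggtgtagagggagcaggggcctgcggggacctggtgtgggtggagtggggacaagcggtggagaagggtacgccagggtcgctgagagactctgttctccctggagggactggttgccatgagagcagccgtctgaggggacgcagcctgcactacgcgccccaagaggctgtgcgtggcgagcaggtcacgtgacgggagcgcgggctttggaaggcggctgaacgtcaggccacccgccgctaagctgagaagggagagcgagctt
ORC6: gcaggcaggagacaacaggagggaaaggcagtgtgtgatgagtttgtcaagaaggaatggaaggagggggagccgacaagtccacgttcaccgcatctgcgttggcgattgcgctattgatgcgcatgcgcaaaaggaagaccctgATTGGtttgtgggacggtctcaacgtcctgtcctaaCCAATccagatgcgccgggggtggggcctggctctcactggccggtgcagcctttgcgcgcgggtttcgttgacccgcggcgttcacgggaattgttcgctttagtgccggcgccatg
GINS2: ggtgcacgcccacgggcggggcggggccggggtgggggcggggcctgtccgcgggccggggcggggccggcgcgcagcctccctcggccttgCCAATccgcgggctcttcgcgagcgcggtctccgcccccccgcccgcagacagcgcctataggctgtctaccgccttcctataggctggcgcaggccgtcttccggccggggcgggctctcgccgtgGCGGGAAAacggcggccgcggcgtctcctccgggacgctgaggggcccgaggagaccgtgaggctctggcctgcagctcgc
TIMELESS: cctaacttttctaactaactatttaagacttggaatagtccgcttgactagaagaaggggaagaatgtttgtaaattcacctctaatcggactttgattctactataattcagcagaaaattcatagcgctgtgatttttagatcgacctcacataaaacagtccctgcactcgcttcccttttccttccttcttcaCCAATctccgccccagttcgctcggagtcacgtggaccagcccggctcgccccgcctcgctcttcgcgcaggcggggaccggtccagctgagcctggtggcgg
MCM10: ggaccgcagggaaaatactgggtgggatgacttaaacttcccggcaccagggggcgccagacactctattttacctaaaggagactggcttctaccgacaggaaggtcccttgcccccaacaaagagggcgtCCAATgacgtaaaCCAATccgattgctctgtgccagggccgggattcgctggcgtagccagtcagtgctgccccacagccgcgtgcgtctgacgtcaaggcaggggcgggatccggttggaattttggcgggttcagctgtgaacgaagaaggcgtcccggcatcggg
ORC4: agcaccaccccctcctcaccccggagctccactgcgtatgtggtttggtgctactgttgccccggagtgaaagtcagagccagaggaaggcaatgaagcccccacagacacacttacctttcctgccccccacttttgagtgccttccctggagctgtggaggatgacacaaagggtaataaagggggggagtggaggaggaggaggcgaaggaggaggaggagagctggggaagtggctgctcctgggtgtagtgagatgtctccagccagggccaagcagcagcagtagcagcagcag
ORC2: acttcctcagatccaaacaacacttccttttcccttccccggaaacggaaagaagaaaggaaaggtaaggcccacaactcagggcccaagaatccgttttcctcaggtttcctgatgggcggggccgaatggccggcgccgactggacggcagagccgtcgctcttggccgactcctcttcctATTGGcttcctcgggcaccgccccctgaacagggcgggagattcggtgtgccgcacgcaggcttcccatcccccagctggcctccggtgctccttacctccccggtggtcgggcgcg
The windows are chr11:61792661-61792960 on the plus strand for FEN1, chr16:46689409-46689708 on the plus strand for ORC6, chr16:85688905-85689204 on the minus strand for GINS2, chr12:56449377-56449676 on the minus strand for TIMELESS, chr10:13161308-13161607 on the plus strand for MCM10, chr2:148021502-148021801 on the minus strand for ORC4, chr2:200963611-200963910 on the minus strand for ORC2 (RefSeq, GRCh38.p14). Of these 7, the window of GINS2 alone held the E2F letters, on the opposite strand and 31 bases before the start. ORC6 and MCM10 each held 2 CCAAT boxes, GINS2, TIMELESS and ORC2 held 1 each, and the windows of FEN1 and ORC4 held no capitals.

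The origin recognition complex did not move as one. Of its 6 subunits, 3 fell (ORC1, ORC3 and ORC6), 2 rose (ORC2 and ORC4) and ORC5 was not called. Over all features tested, 23.2% were called lower and 24.8% higher. ORC6, the subunit most loosely tied to the others, had 206 and 132 normalized reads in siSFPQ-2, 239.9 and 269 in siSFPQ-3, and 454 and 464 in siCtrl libraries. Every siSFPQ library was below both siCtrl libraries (log2 fold change -1.16 ± 0.17 SE, limma adjusted p = 2.92e-04). The same held for 39 of the 48 genes and for 6740 of the 21773 features tested. All siSFPQ libraries lay above siCtrl for 2 of the 48 genes and for 6605 features. ORC1, whose protein is the subunit with a regulated level through the cell cycle, had 387 and 299 in siSFPQ-2, 539.9 and 523 in siSFPQ-3, and 661 and 623 in siCtrl libraries. Its siSFPQ-3 libraries stood between the other groups, and the fall passed the test with both siRNAs together (-0.59 ± 0.12, adjusted p = 0.00227) and with siSFPQ-2 but not with siSFPQ-3 (-0.27, adjusted p = 0.134).

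The genes that rose encode core ORC subunits. ORC4 had 915 and 1089 normalized reads in siSFPQ-2, 1179.9 and 1167 in siSFPQ-3, and 669 and 537 in siCtrl libraries, so the siSFPQ libraries were all above (0.85 ± 0.12, limma adjusted p = 2.00e-04). ORC2 had 929.6 and 963 in siSFPQ-2, 1115 and 1144 in siSFPQ-3, and 781 and 726 in siCtrl libraries, again with no overlap (0.46 ± 0.09, adjusted p = 0.00198). Both rose with each siRNA by itself. ORC5, whose siSFPQ-3 libraries overlapped siCtrl, was just short of the threshold (-0.28, adjusted p = 0.0534). It was called lower with siSFPQ-2 (-0.41, adjusted p = 0.0264) and not with siSFPQ-3 (-0.16, adjusted p = 0.333). The change of ORC3 was small (-0.26, adjusted p = 0.0451) and its call was lost under 8 of 15 alternatives of the processing.

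All 3 licensing genes fell, with a median log2 fold change of -0.92. CDT1, which brings MCM to ORC, had 306 and 221 normalized reads in siSFPQ-2, 331 and 383 in siSFPQ-3, and 639 and 624 in siCtrl libraries. The groups did not overlap (-1.05 ± 0.14, limma adjusted p = 1.68e-04). CDC6, the ATPase that loads MCM with ORC, fell by 0.86 on the log2 scale, and GMNN, which encodes geminin, the inhibitor of CDT1, fell by 0.92. CDT1 and its inhibitor thus fell alike in direction.

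Of the 6 MCM genes, 5 fell and MCM8 was not called, with a median of -0.64. MCM2 to MCM6 encode 5 subunits of the replicative helicase ring, while MCM8 acts in a separate complex in recombination repair. MCM5 had 294 and 155 normalized reads in siSFPQ-2, 344 and 400.0 in siSFPQ-3, and 681 and 616 in siCtrl libraries, which leaves a gap between siSFPQ and siCtrl (-1.20 ± 0.21, limma adjusted p = 8.84e-04). MCM3 had 288 and 213 in siSFPQ-2, 423 and 393 in siSFPQ-3, and 609.7 and 614 in siCtrl libraries, with the siSFPQ-2 libraries lowest (-0.94 ± 0.13, adjusted p = 2.30e-04). MCM4 and MCM2 fell by 0.66 and 0.63, and MCM6 by 0.34. MCM8 had siSFPQ-3 libraries that overlapped siCtrl (-0.22, adjusted p = 0.190). It was called lower with siSFPQ-2 (-0.48, adjusted p = 0.0251) and not with siSFPQ-3 (0.05, adjusted p = 0.796). The ring's sixth subunit, MCM7, is no member of the set and was looked at after its values were seen. It had 875 and 769.6 normalized reads in siSFPQ-2, 1011 and 1283 in siSFPQ-3, and 1144 and 1113 in siCtrl libraries. MCM7 was not called with both siRNAs together (-0.22, limma adjusted p = 0.129). By single siRNA it was called lower with siSFPQ-2 (-0.46, adjusted p = 0.0184) and not called with siSFPQ-3 (0.01, adjusted p = 0.943).

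The GINS complex and CDC45, which complete the helicase, fell as a whole, 5 of 5, with a median of -1.04. GINS4 had the largest fall of the set, with 395 and 213 normalized reads in siSFPQ-2, 385 and 202 in siSFPQ-3, and 1318 and 1269.5 in siCtrl libraries. Each siSFPQ library was far below siCtrl (-2.18 ± 0.26, limma adjusted p = 8.52e-05), and the mean was 23.5% of siCtrl with siSFPQ-2 and 22.7% with siSFPQ-3. The RefSeq span of GINS4 overlaps the non-coding transcript GPAT4-AS1 over 68.0% of its length. Whether counting used strand is unstated, and reads of GINS4 cannot be told from those of that transcript.

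GINS2 and CDC45 differed most between the siRNAs within this complex. GINS2 had 97.1 and 68.7 normalized reads in siSFPQ-2, 125 and 176 in siSFPQ-3, and 241 and 230.4 in siCtrl libraries, all siSFPQ libraries being below siCtrl (-1.09 ± 0.19, limma adjusted p = 9.97e-04). CDC45 had 365 and 215 in siSFPQ-2, 529 and 469 in siSFPQ-3, and 603 and 543 in siCtrl libraries, so that the higher siSFPQ-3 library came close to siCtrl (-0.61 ± 0.18, adjusted p = 0.0160). The fall of CDC45 passed the test with siSFPQ-2 (-1.03) and not with siSFPQ-3 (-0.20, adjusted p = 0.462), and its call with both siRNAs was lost without either siCtrl library. GINS1 fell by 1.04 and GINS3 by 0.69.

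All 5 genes of origin firing fell, with a median of -0.83. MCM10, which helps the new helicase start unwinding, had 266 and 189 normalized reads in siSFPQ-2, 348 and 319 in siSFPQ-3, and 596 and 542 in siCtrl libraries. There was no overlap (-1.05 ± 0.14, limma adjusted p = 1.95e-04). TICRR (treslin), which links CDK activity to the loading of CDC45, fell by 1.05, and CDC7, the catalytic subunit of DDK, by 0.83. DBF4, the regulatory subunit of DDK, fell by 0.35 (adjusted p = 0.0185), a call that was lost without either siCtrl library (highest adjusted p = 0.205). TOPBP1, the partner of treslin, fell by 0.28 (adjusted p = 0.0455). TOPBP1 had siSFPQ-3 libraries that overlapped siCtrl, and its call was lost under 7 of 15 alternatives.

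Polymerase alpha and primase make the primers. Of 4 genes, 3 fell and PRIM2 was not called, with a median of -0.66. PRIM1, the catalytic primase subunit, had 228 and 141 normalized reads in siSFPQ-2, 266 and 222 in siSFPQ-3, and 433 and 433 in siCtrl libraries, which lay well above the others (-1.05 ± 0.18, limma adjusted p = 8.26e-04). POLA2, the accessory subunit, fell by 0.77, and POLA1, the polymerase subunit, by 0.56. For POLA1, siSFPQ-3 replicate 1 (1778) lay above siCtrl replicate 2 (1729). Its fall passed the test with siSFPQ-2 (-0.79, adjusted p = 0.00712) and not with siSFPQ-3 (-0.33, adjusted p = 0.178). PRIM2, the large primase subunit, had overlapping groups (-0.18, adjusted p = 0.389).

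The polymerases of the leading and lagging strands fell in all 5 genes, with a median of -0.72. POLE, the catalytic subunit of polymerase epsilon, had 1208 and 868 normalized reads in siSFPQ-2, 1484 and 1305 in siSFPQ-3, and 2346 and 2373 in siCtrl libraries. No siSFPQ library came near siCtrl (-0.98 ± 0.13, limma adjusted p = 1.56e-04). POLD1, the catalytic subunit of polymerase delta, fell by 0.77 and POLE2, an accessory subunit of epsilon, by 0.72, while the delta subunits POLD2 and POLD3 fell by 0.56 and 0.47.

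The sliding clamp and 4 of the 5 subunits of its loader fell, and RFC1 was not called. PCNA had 254 and 208 normalized reads in siSFPQ-2, 287 and 318 in siSFPQ-3, and 567 and 514 in siCtrl libraries, with the siSFPQ libraries all lower (-1.03 ± 0.12, limma adjusted p = 9.03e-05). The small loader subunits RFC2, RFC3, RFC4 and RFC5 fell by 0.59, 0.90, 0.67 and 0.59. RFC1, the large subunit of the loader, had 807 and 784 in siSFPQ-2, 903 and 897 in siSFPQ-3, and 833 and 814 in siCtrl libraries, a spread around siCtrl in both directions (0.04, adjusted p = 0.737). The median of the 6 genes was -0.63.

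Both genes of lagging strand maturation fell. FEN1, the flap nuclease that trims the primer end, had 176 and 118 normalized reads in siSFPQ-2, 172 and 161 in siSFPQ-3, and 381 and 424 in siCtrl libraries. It had the second largest fall of the set, again without overlap (-1.37 ± 0.16, limma adjusted p = 8.88e-05). LIG1, the ligase that seals the nick, fell by 0.80.

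Of the 3 subunits of RPA, the protein that coats single-stranded DNA, 2 fell and RPA1 was not called. RPA3, the smallest subunit, had 107 and 113 normalized reads in siSFPQ-2, 120.5 and 138 in siSFPQ-3, and 215 and 163 in siCtrl libraries, with siCtrl replicate 2 nearest to the siSFPQ libraries (-0.65 ± 0.16, limma adjusted p = 0.00787). Its RefSeq span overlaps the gene UMAD1 over 94.8% of its length, and the reads of the 2 genes cannot be told apart here. RPA2 fell by 0.59. RPA1, the large DNA-binding subunit, had 578 and 557 in siSFPQ-2, 714 and 698 in siSFPQ-3, and 681 and 683 in siCtrl libraries, so its siSFPQ groups stood on opposite sides of siCtrl (-0.11, adjusted p = 0.349). RFC1 and RPA1 were the 2 genes of the 48 with such a pattern, which 1.47% of all features showed in either direction.

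The 3 fork protection genes fell, with a median of -0.77. TIMELESS, a part of the complex that keeps the helicase and polymerases together, had 586 and 448 normalized reads in siSFPQ-2, 613 and 510.4 in siSFPQ-3, and 1139.7 and 1101 in siCtrl libraries. The siSFPQ libraries were all well below siCtrl, with overlapping levels of the siRNAs (-1.06 ± 0.13, limma adjusted p = 8.07e-05). WDHD1 (AND-1), which ties polymerase alpha to the helicase, fell by 0.77, and CLSPN (claspin), which carries the checkpoint signal to CHEK1, by 0.68.

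**Figure D4:**
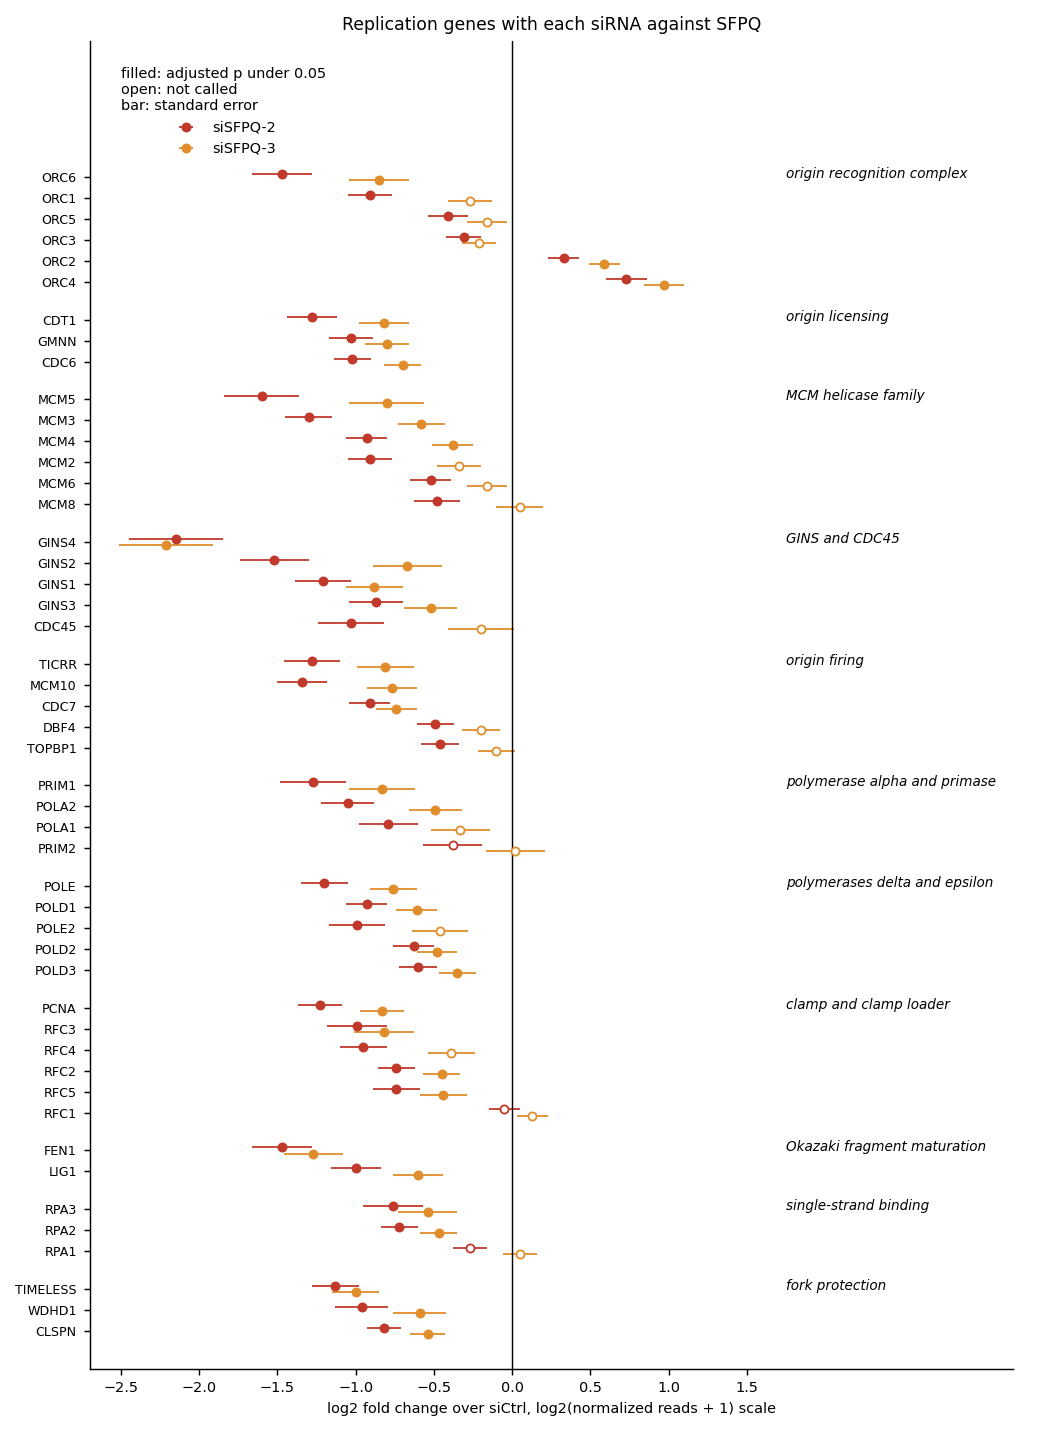
Log2 fold change over siCtrl (horizontal axis) of each of the 48 genes with siSFPQ-2 (red) and siSFPQ-3 (orange), grouped by role, with bars for the standard error and filled points for an adjusted p under 0.05. The siSFPQ-3 point lies to the right of the siSFPQ-2 point in 47 of the genes, and GINS4 stands alone at the left.

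The size of the fall tended to differ between the siRNAs, with more transcription left with siSFPQ-3. In the direct test of siSFPQ-3 against siSFPQ-2, 47 of 48 genes had a difference above 0, as had 50.4% of all features, and the median difference was 0.35 on the log2 scale against 0.002 over all features. Both siSFPQ-3 libraries stood above both siSFPQ-2 libraries for 37 of the genes, against 22.0% of all features. The genes share the same libraries, so these counts are not independent evidence of a difference between the siRNAs. After adjustment limma called 0 of the 48 genes, against 0.0230% of all features called lower and 0.0781% called higher, and the smallest adjusted p was 0.101. At an unadjusted p under 0.05, 29 were higher, against 7.57% of all features. After adjustment edgeR called 0 of the genes, against 0.0505% of all features called lower and 0.184% higher. DESeq2 called 4 higher, against 0.230% of all features called lower and 0.969% higher. The 5 genes with the largest differences were GINS2 (0.85, adjusted p = 0.158), CDC45 (0.83, adjusted p = 0.141), MCM5 (0.79, adjusted p = 0.210), MCM3 (0.72, adjusted p = 0.101) and ORC1 (0.64, adjusted p = 0.104).

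The siSFPQ-2 libraries differed between themselves. siSFPQ-2 replicate 2 had the lowest value of the 6 libraries for 43 of the 48 genes. The summed reads of the 48 genes were 63.3% and 52.1% of the siCtrl mean in the siSFPQ-2 libraries and 75.8% and 71.9% in the siSFPQ-3 libraries. The median log2 difference from the siCtrl mean was -0.76 and -1.09 in siSFPQ-2 and -0.52 and -0.48 in siSFPQ-3 libraries. Replicate 2 lay below replicate 1 in siSFPQ-2 for 44 of the genes, in siSFPQ-3 for 28 and in siCtrl for 36, while over all features the shares were 49.8%, 49.4% and 56.1%. Without siSFPQ-2 replicate 2 the median difference between the siRNAs was 0.23, and without siSFPQ-2 replicate 1 it was 0.50, with 10 genes called higher, against 0.979% of all features.

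Levels per length spanned a wide range among the genes. In siCtrl libraries CDT1 had 115 normalized reads per kb of RefSeq span, FEN1 93.0 and GINS4 82.0, while PRIM2 had 1.98, RPA3 2.30 and RFC3 3.33. In siSFPQ libraries CDT1 had 56.7, FEN1 36.2 and GINS4 18.9 per kb, and PRIM2 had 1.78, RPA3 1.46 and RFC3 1.80. Across the 48 genes the log2 fold change had a Pearson r of -0.51 and a Spearman rho of -0.51 with the log2 siCtrl level per kb, and an r of 0.48 and a rho of 0.49 with the log2 span, so that short and densely transcribed genes had the larger falls. These correlations are descriptions across genes, whose values share the same libraries. The siCtrl values enter both the fold change and the level per kb. The length enters the span and the level per kb, but not the fold change. The spans of 26 genes overlap another annotated gene, 7 of them over more than 20% of their length: RPA3, RPA1, GINS4, RFC5, CDC7, POLA2 and TICRR.

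Where the polymerases stood along the genes was read from the deposited profiles, which give signal in 500 bins per gene and were read as a gene scaled to 300 bins with 100 bins on either side. The median profile of the 48 genes had its peak in the first bin of the gene, at 17.2 and 20.3 times the gene-body mean in siSFPQ-2, 14.1 and 21.1 in siSFPQ-3, and 26.3 and 21.9 in siCtrl libraries. The log2 ratio of signal at the start over the body had a median over the genes of 2.42 and 2.61 in siSFPQ-2, 2.08 and 2.34 in siSFPQ-3, and 2.60 and 2.54 in siCtrl libraries, and the siSFPQ and siCtrl libraries overlap. It changed by a median of -0.28 for the 48 genes, beside -0.23 over all profile genes.

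None of the window ratios was called for any of the 48 genes by limma. For the start over the body, 0 genes passed, against 0.186% of all profile genes, and at an unadjusted p under 0.05, 13 were lower and 1 higher, against 22.9% and 6.14%. The most negative change was that of CLSPN (-0.84, adjusted p = 0.0929) and the most positive that of RPA3 (1.02, adjusted p = 0.115). For the late over the early body, 0 passed, against 0% of all, and 0 were lower and 1 higher at an unadjusted p under 0.05, against 8.47% and 8.89%, with a median change of 0.03. For signal past the gene end over the body, 0 passed, against 0% of all, and 2 were lower and 1 higher at an unadjusted p, against 9.11% and 5.69%, with a median change of -0.17 beside -0.09 over all profile genes.

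**Figure D5:**
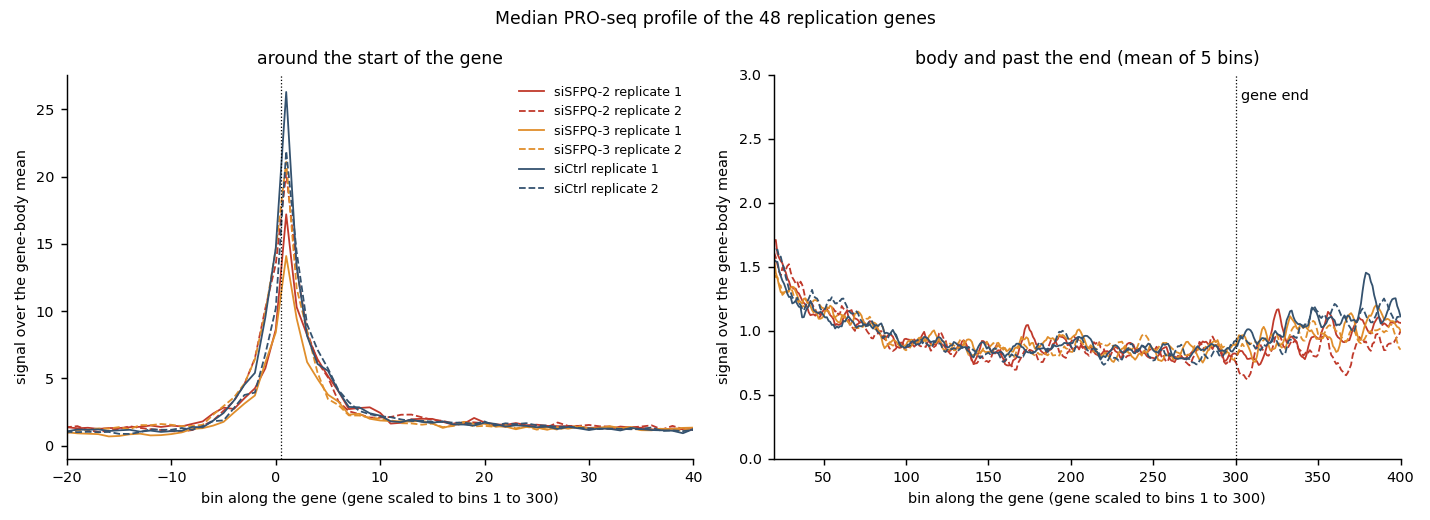
Median PRO-seq signal over the gene-body mean (vertical axis) along the 48 genes scaled to 300 bins (horizontal axis), around the start on the left and along the body and past the end on the right, for each of the 6 libraries. The peaks at the start range from 14.1 to 26.3, and the body curves of all libraries run together.

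Several of the genes share their start region with a neighbour transcribed the other way. Within 1000 bases of the start, 15 of the genes had 16 such neighbours by the RefSeq table, of which 12 were tested. With both siRNAs, 4 of the 12 fell, 2 rose and 6 were not called, beside 23.2% and 24.8% of all features. POLE and its neighbour PXMP2, a peroxisomal membrane protein gene 245 bases away, fell together. PXMP2 had 628 and 550.3 normalized reads in siSFPQ-2, 649.6 and 627 in siSFPQ-3, and 1035 and 1189.8 in siCtrl libraries (-0.86, limma adjusted p = 9.26e-05). TMEM258, 312 bases from the start of FEN1, also fell (-0.36, adjusted p = 0.0137), with all siSFPQ libraries below siCtrl.

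Other pairs moved apart. CDS2, a phospholipid synthesis gene 386 bases from the start of PCNA, had 835 and 869 normalized reads in siSFPQ-2, 768 and 881 in siSFPQ-3, and 692 and 610.4 in siCtrl libraries, and it rose while PCNA fell (0.36, limma adjusted p = 0.0134). MBD5, whose start lies within the ORC4 span 540 bases from the ORC4 start, had 1760.2 and 1556 in siSFPQ-2, 1856 and 1246 in siSFPQ-3, and 3056 and 2401 in siCtrl libraries, and it fell while ORC4 rose (-0.77, adjusted p = 0.00236). Beside genes that were not called, SMYD4 next to RPA1 fell (-0.32, adjusted p = 0.0189) and TRMT6 next to MCM8 rose (0.43, adjusted p = 0.0145).

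Most other genes of DNA replication that were listed also fell. Of 33 further replication genes, 22 fell, 2 rose and 9 were not called, with a median of -0.61. Among all features tested, 23.2% were called lower and 24.8% higher, and the median was -0.02. RNASEH2A, the catalytic subunit of the nuclease that removes ribonucleotides from DNA, had 161 and 119.6 normalized reads in siSFPQ-2, 186 and 151 in siSFPQ-3, and 396 and 359 in siCtrl libraries, a clear gap (-1.30, limma adjusted p = 1.00e-04). CHTF18, of the alternative clamp loader, fell by 1.17, and ASF1A, a histone chaperone, by 0.86. TOP1, the topoisomerase that relieves torsion ahead of the fork and of RNA polymerase, had 3319.8 and 3279.9 in siSFPQ-2, 4058 and 4016 in siSFPQ-3, and 1921 and 1706 in siCtrl libraries, and so rose in every siSFPQ library (1.01, adjusted p = 1.83e-05). The second gene that rose was POLD4, the smallest subunit of polymerase delta (0.83, adjusted p = 0.0151).

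Genes that control S phase entry fell in 12 of 18 cases, 1 rose and 5 were not called, with a median of -0.78. Among all features tested, 23.2% were called lower and 24.8% higher, and the median was -0.02. CCNE1 (cyclin E1), which activates CDK2 at the start of S phase, had 151 and 132 normalized reads in siSFPQ-2, 159 and 172 in siSFPQ-3, and 309 and 354 in siCtrl libraries, with no overlap (-1.11, limma adjusted p = 1.00e-04). ATRIP, the partner of the ATR kinase, fell by 0.80, and E2F7, a repressor of the E2F family, by 0.90. CDK2 itself rose (0.59, adjusted p = 0.00427), with 259 and 305 in siSFPQ-2, 269 and 325 in siSFPQ-3, and 192 and 191 in siCtrl libraries.

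Of 12 genes of deoxynucleotide synthesis, 7 fell, 2 rose and 3 were not called, with a median of -0.62. Among all features tested, 23.2% were called lower and 24.8% higher, and the median was -0.02. TYMS, thymidylate synthase, had 362 and 246 normalized reads in siSFPQ-2, 432 and 350.4 in siSFPQ-3, and 827 and 759.9 in siCtrl libraries, which are all higher (-1.22, limma adjusted p = 1.33e-04). DTYMK, the thymidylate kinase, fell by 1.12 and DUT, the dUTP pyrophosphatase, by 0.77. RRM2B, the ribonucleotide reductase subunit induced by p53, rose (0.35, adjusted p = 0.0119), as did CMPK1, the cytidylate and uridylate kinase (0.36, adjusted p = 0.0157).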

How the data were processed

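PRO-seq libraries of SBC-3 cells with siSFPQ-2, siSFPQ-3 or siCtrl were analysed from processed values, with n = 2 libraries per group. The submitters' processing notes name DESeq2 1.38.1, SAMtools 1.3.1, Bowtie2, cutadapt 1.14 and UMI-tools, with builds dm6 and hg38. The order of steps, the role of dm6, the annotation, the counted part of a gene and the strand setting are not stated. The authors deposited signal per feature as normalized reads. Divided by the worth of 1 read, 100.0% of values were whole within 0.1, and these recovered reads went into edgeR 4.0.16 and DESeq2 1.42.0 as alternatives. The deposited table also holds the authors' log2 fold change and adjusted p-value. Per library, the authors deposited signal in 500 bins per gene.

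After 240 repeated lines were removed, 25827 features remained, of which 21773 reached 10 normalized reads in 2 or more libraries. Their log2(value + 1) values went into limma 3.58.1 (R 4.3.3, trend), with the 3 groups fitted at once, with Benjamini-Hochberg adjustment over all of them. Ratios between profile windows were tested likewise without the trend. A change shared by all genes could not be seen in normalized reads. Replicates differed by more than sampling noise (chi-square per degree of freedom 11.7 for siSFPQ-2, 24.3 for siSFPQ-3 and 11.0 for siCtrl), so none was counted as the same library. A single read was worth 0.797 to 1.11 normalized reads, depending on the library, and genes with few reads are measured least precisely. Values in every library are given for the member of each role with the largest change, members called higher and the 5 that differ most between siRNAs. From the other lists, up to 3 genes per direction with the smallest p are named. The members and lists were chosen with earlier results of these data known. The 28-base stretches around E2F letters were chosen after the matches were seen. Alternatives were the pseudocount, the filter, the scaling, the tool, a replicate block and leaving out each library.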

Additional observations from a re-analysis of the deposited data

Results flagged for a closer look

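For 2 of the 48 genes, the siSFPQ-3 libraries and the siSFPQ-2 libraries fell on opposite sides of siCtrl without overlap, a pattern that 1.47% of all features tested showed in either direction. RPA1, with siSFPQ-3 above and siSFPQ-2 below siCtrl, had a log2 difference of 0.32 between siSFPQ-3 and siSFPQ-2 (limma adjusted p = 0.253). RFC1, on the same sides, had a difference of 0.18 (adjusted p = 0.512). The direct test of the difference did not pass for either gene. With 2 libraries a group, single libraries could not be tested as outliers.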

How the results depend on the processing

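With both siRNAs, the count of genes called lower ranged from 38 to 42 of 48 over the alternatives of pseudocount, filter, scaling, tool and block, and from 32 to 41 when 1 library was left out. Calls over all features moved too, with 18.8% lower under DESeq2, 27.1% under the block, 11.3% without siCtrl replicate 1 and 11.6% without siCtrl replicate 2, against 23.2%. The genes called higher stayed at 2 in number under each of these. The median log2 fold change ranged from -0.78 to -0.63 when 1 library was left out. For each siRNA alone, the share of all features called lower also moved when 1 library was left out. With all libraries it was 17.9% for siSFPQ-2 and 20.4% for siSFPQ-3, and for both it was smallest without siCtrl replicate 1. The ranges of counts that follow are therefore not particular to the 48 genes. With siSFPQ-3 alone the count of lower genes ranged from 15 to 34 when 1 library was left out, and with siSFPQ-2 alone from 35 to 43. Of the 43 called genes, 32 kept their call under all 15 alternatives and 11 lost it under at least 1, ORC3 under 8, TOPBP1 under 7 and MCM6 under 4. ORC5 became called under equal totals, under the block and without siSFPQ-3 replicate 1. The direct comparison of siSFPQ-3 with siSFPQ-2 called 0 genes, 4 with DESeq2 on recovered reads, 15 with the replicate block, and between 0 and 10 when 1 library was left out. The cause of these moves was not tested. The shares of all features called higher in that comparison were 0.0781% with limma, 0.969% with DESeq2, 2.63% with the block and 0.979% without siSFPQ-2 replicate 1. Replicate numbers were not taken as a pairing, since the labels do not tie them and the deviations of replicates from their group means correlated at only 0.05 and 0.06 between siSFPQ-2 or siSFPQ-3 and siCtrl, though at 0.38 between siSFPQ-2 and siSFPQ-3. The window ratios called 0 of the 48 genes under each alternative run. Groups of 2 libraries limit the precision of every value.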
